A study of Homo sapiens with 6 samples.

Results

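Described here are 39 genes that the literature names as let-7 targets, listed by symbol, with no measured value in the rule. The list and the threshold used below were, however, chosen with earlier results of these data known. Of the 39 genes, 36 had a named probe set, among 17687 named genes in all. NRAS, PLAGL1 and PGRMC1 had none under these symbols and were not analysed here. The let-7 family of miRNAs is read by the cell through its seed, the stretch from base 2 to base 8 of the mature strand, which pairs with the mRNA. let-7 is scarce in early embryos and stem cells and abundant in differentiated cells, where it holds down growth and fetal genes such as HMGA2, LIN28B and the IGF2BP genes. LIN28A and LIN28B in turn block the maturation of let-7.

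The cells were THP-1, a long-established human line from a monocytic leukaemia, turned into macrophage-like cells with 100 ng/ml of the phorbol ester PMA for 2 days. A mimic, a short synthetic RNA duplex that stands in for a miRNA, was then given for 24 h. It was that of miR-151a-3p, miR-146a-5p, let-7e-5p, miR-130a-3p or let-7d-3p, or a negative control (mimic NC, titled mimic NC 2 in the labels, where the 2 is not explained). All 6 cultures shared the line, the PMA and the transfection reagent, Lipofectamine RNAiMAX. Each condition was read on 1 Clariom S array, so no value has a replicate, no gene could be tested and the number of arrays limits the precision. The treatment text of the labels names let-7a-5p for all samples, and the conditions were taken from the sample titles.

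The sequences show that let-7e-5p carries the let-7 seed and that let-7d-3p, from the other arm of a let-7 hairpin, does not. The strands of miR-130a-3p and miR-151a-3p were not compared here. Mature strands are given as RefSeq has them (GRCh38.p14), 5′ to 3′, with the seed in capitals. let-7a-5p, which the labels mention, and let-7d-5p, the partner of let-7d-3p, are shown for comparison.
let-7e-5p: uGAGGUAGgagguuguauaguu
let-7a-5p: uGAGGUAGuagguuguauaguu
let-7d-5p: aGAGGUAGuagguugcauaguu
let-7d-3p: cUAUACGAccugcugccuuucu
miR-146a-5p: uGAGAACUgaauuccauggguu

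let-7e-5p lies on the plus strand at chr19:51692793-51692814. It differs from let-7a-5p by 1 base of 22, U9G (let-7a-5p first, counted from the 5′ end), outside the seed. The seed GAGGUAG was shared by 11 of the 2370 mature miRNAs of the RefSeq table, namely let-7a, b, c, d, e, f, g and i from the 5p arm, miR-98-5p, miR-4458 and miR-4500, and its match in an mRNA reads CUACCUC. The let-7d-3p seed UAUACGA was held by 1 miRNA, let-7d-3p itself, and equals the let-7e-5p seed at 1 of 7 positions. miR-146a-5p equals it at 3 of 7. Whether each listed gene carries a seed match was not examined, because no transcript sequence was used here.

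The let-7d hairpin, on the plus strand at chr9:94178834-94178920, holds both arms in 1 transcript of 87 bases, and capitals mark the seed of let-7d-5p first and that of let-7d-3p second.
let-7d hairpin: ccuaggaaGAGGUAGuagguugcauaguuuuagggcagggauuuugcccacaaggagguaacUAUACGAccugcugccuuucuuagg

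Signals are log2 values per probe set, and each listed gene had 1 probe set. Background was 5.39, a level that 95% of the signals of 348 olfactory receptor probe sets did not pass, since these receptors are mostly silent outside the nose. A gene counted as above background by its mean over the 6 arrays, which held for 31 of the 36 genes and for 11469 of all 17687. The difference of an array is its signal minus the median signal of the other 5 arrays. A difference of more than 0.32 on the log2 scale in either direction, the threshold below, was counted. The array medians lay between 6.92 and 6.95. Macrophage markers were bright: all 10 were above background, with CD68 between 15.25 and 15.48 and TYROBP between 17.25 and 17.36. The labels also call the line lymphocyte-like. Of 10 T and NK cell markers 3 were above background (CD3E, CD5 and NCAM1), and of 6 B cell markers on the array 3 were (CD79A, CD79B and PAX5). CD3E was at 5.80 to 6.09, CD5 at 5.13 to 6.05 and NCAM1 at 7.49 to 8.02. CD79A was at 6.68 to 7.68, CD79B at 5.87 to 6.84 and PAX5 at 7.27 to 7.81. The T cell gene CD3D was at 3.13 to 3.70 and the B cell gene MS4A1 at 4.20 to 4.53, under background on all 6 arrays.

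With let-7e-5p the listed targets were lower as a group. Of the 31 above background, 14 were past the threshold below the median of the other 5 arrays and 0 were past it above, while 7.91% of all genes above background were that much lower and 7.19% that much higher. For 17 of the 31 the let-7e-5p array was the lowest of the 6, which was so for 16.5% of all genes, and for 0 it was the highest (12.4% of all genes). Lower by any amount were 26 of 31, against 50.7% of all genes. The median difference was -0.23 over the 31 genes and -0.01 over all genes. Without the filter on background, 15 of the 36 genes were past the threshold below (9.36% of all 17687 genes), 0 were past it above (9.97%) and 20 were lowest on let-7e-5p (15.3%), with a median of -0.25. As measured, IGF2BP3, MAP3K1 and CDC34, 3 of the 31, were at least 1.5-fold lower (1.21% of all genes), but the CDC34 signal was under background and its fold is bounded only at 1.23. With signals under background raised to it, CDC34, FIGN and HIC2 were no longer past the threshold and 11 genes were. The share of all genes with signals raised in this way was not computed.

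The same counts differed from array to array. Between 1 and 5 of the 31 genes had their lowest signal on any 1 of the other arrays: 5 on let-7d-3p (22.7% of all genes), 3 on mimic NC (13.2%), 1 on miR-151a-3p (15.5%), 2 on miR-130a-3p (15.2%) and 3 on miR-146a-5p (13.6%). Past the threshold below the other 5 arrays were 4 genes with let-7d-3p (12.7% of all genes), 1 with mimic NC (6.75%), 2 with miR-151a-3p (9.21%), 1 with miR-130a-3p (8.02%) and 3 with miR-146a-5p (6.53%). Past it above were 3 with let-7d-3p (7.42%), 3 with mimic NC (5.6%), 3 with miR-151a-3p (11.2%), 9 with miR-130a-3p (8.56%) and 5 with miR-146a-5p (7.94%). These comparisons share arrays, so a low let-7e-5p signal also enters the median that the other arrays are set against.

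**Figure D1:**
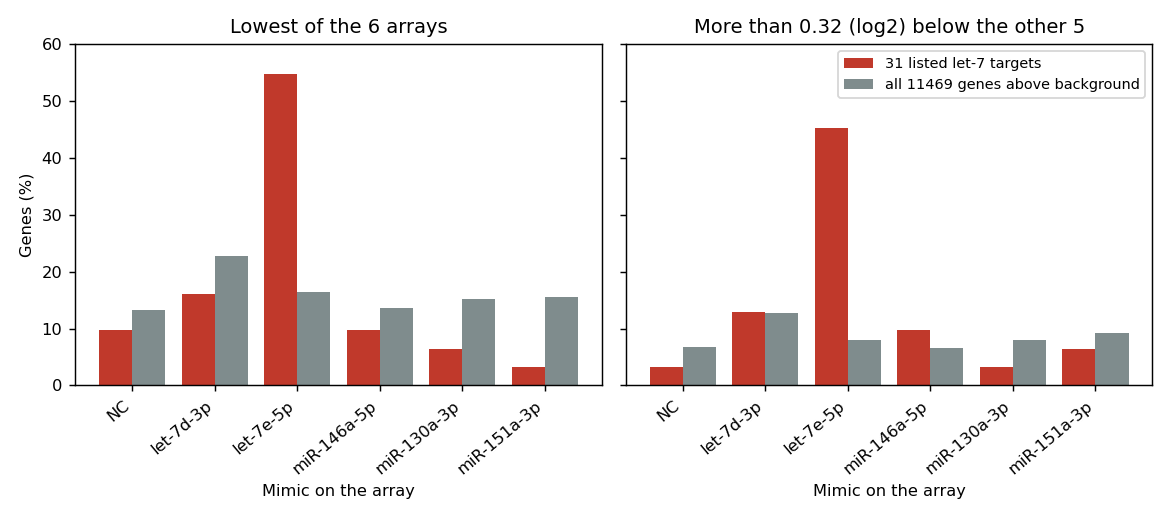
Share of genes in percent (vertical axis) for each of the 6 arrays (horizontal axis), red for the 31 listed let-7 targets above background and grey for all 11469 genes above background; the left panel counts genes with their lowest signal on that array and the right panel genes past the threshold (more than 0.32, log2) below the median of the other 5. On let-7e-5p the red bars stand at 54.8% and 45.2%, against 16.5% and 7.91% in grey.

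Against single arrays, the median difference of the 31 genes with let-7e-5p was -0.20 from mimic NC, -0.27 from let-7d-3p, -0.33 from miR-146a-5p, -0.35 from miR-130a-3p and -0.19 from miR-151a-3p. Lower by any amount were 25 of the 31 against mimic NC (49.6% of all genes), 24 against let-7d-3p (47.1%), 23 against miR-146a-5p (51.8%), 28 against miR-130a-3p (51.8%) and 26 against miR-151a-3p (55.0%). Over all genes the medians lay between -0.04 and 0.01. Past the threshold below mimic NC were 9 of the 31 (10.2% of all genes), and 0 were that much above it (10.3%).

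**Figure D2:**
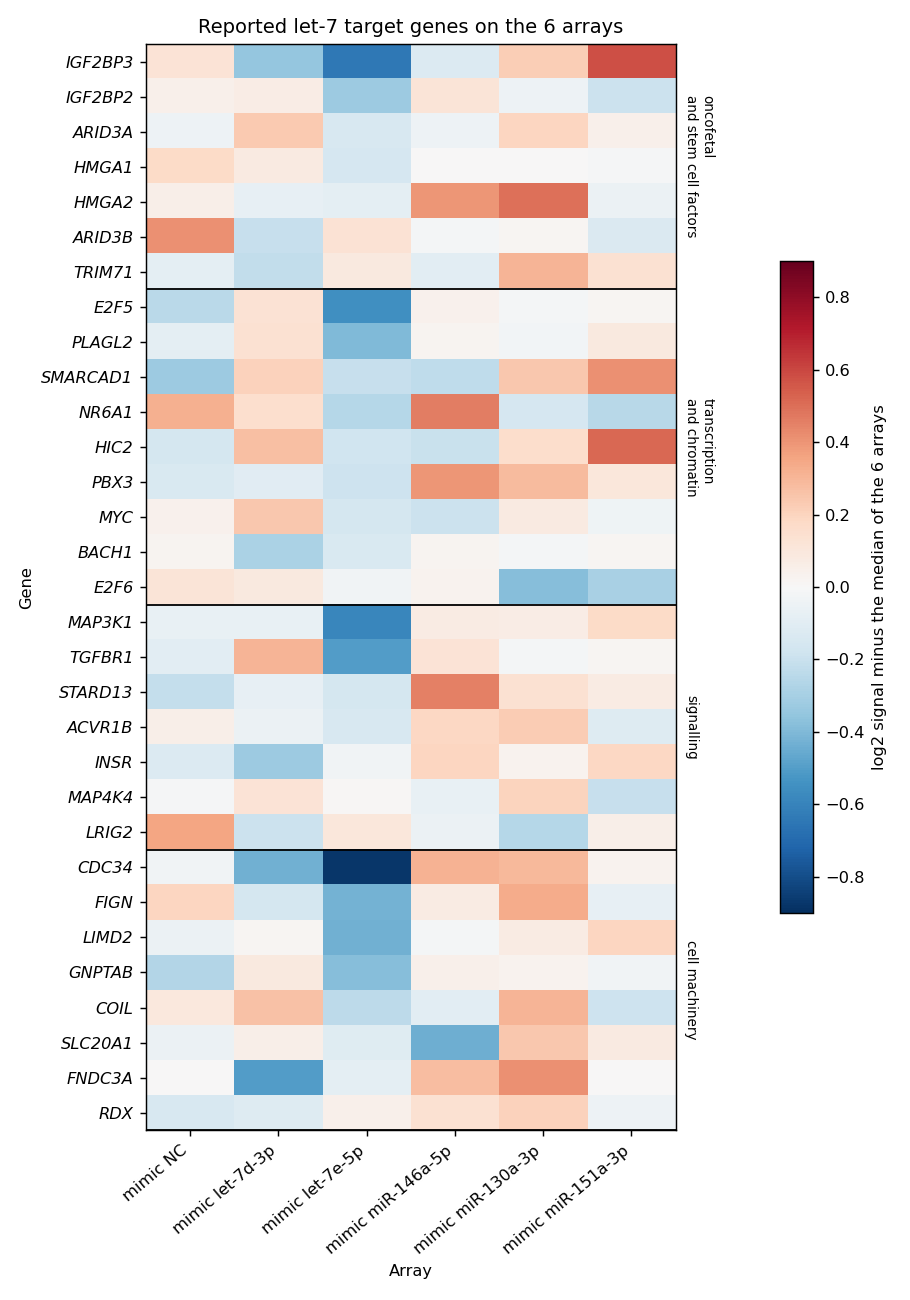
Heat map of the 31 listed targets above background (rows, grouped by role) on the 6 arrays (columns); colour is the log2 signal minus that gene's median over the 6 arrays, blue for lower and red for higher. The let-7e-5p column is blue in most rows, with IGF2BP3, E2F5, MAP3K1 and CDC34 the deepest, and the let-7d-3p column holds both colours.

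Among the oncofetal and stem cell factors, genes active in the embryo and often again in tumours, 7 were above background. Of these 5 were lower with let-7e-5p (50.7% of all genes), with a median difference of -0.15. Past the threshold were 2 (7.91% of all genes), IGF2BP2 and IGF2BP3, whose proteins bind and stabilise mRNAs. IGF2BP3 had a signal of 8.16 with let-7e-5p, 9.38 with miR-151a-3p, 9.02 with miR-130a-3p, 8.68 with miR-146a-5p, 8.45 with let-7d-3p and 8.92 with mimic NC. It was lowest with let-7e-5p and next lowest with let-7d-3p, and highest with miR-151a-3p, so the other arrays themselves spread by 0.93. The let-7e-5p signal was 1.69-fold below their median, a difference that 0.35% of all genes matched or passed. IGF2BP2 was at 11.13 with let-7e-5p, 11.26 with miR-151a-3p, 11.41 with miR-130a-3p, 11.57 with miR-146a-5p, 11.52 with let-7d-3p and 11.50 with mimic NC, 1.29-fold lower than the median of the other 5 and under all of them. IGF2BP1, the third of the family, was under background on all arrays (3.88 to 4.87).

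The HMGA proteins bend DNA and shape chromatin, and HMGA2 is a well known let-7 target. HMGA2 was at 8.48 with let-7e-5p, 8.51 with miR-151a-3p, 9.06 with miR-130a-3p, 8.96 with miR-146a-5p, 8.49 with let-7d-3p and 8.62 with mimic NC. The let-7e-5p, let-7d-3p and miR-151a-3p arrays lay close together, and the lowest place of let-7e-5p rests on 0.01. HMGA1 was at 15.40 with let-7e-5p, 15.54 with miR-151a-3p, 15.55 with miR-130a-3p, 15.55 with miR-146a-5p, 15.63 with let-7d-3p and 15.72 with mimic NC. The let-7e-5p signal was the lowest, with a difference of -0.32 from mimic NC and -0.15 from the median of the other 5.

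LIN28A (4.09 to 5.28) and LIN28B (3.37 to 4.22), the blockers of let-7 maturation, were under background on all 6 arrays. TRIM71, a stem cell ubiquitin ligase and RNA-binding protein, was close to background, at 5.93 with let-7e-5p and between 5.62 and 6.15 on the other arrays, 1.13-fold above their median. The ARID3 genes encode DNA-binding proteins. ARID3A was at 11.60 with let-7e-5p, 11.79 with miR-151a-3p, 11.94 with miR-130a-3p, 11.70 with miR-146a-5p, 11.98 with let-7d-3p and 11.70 with mimic NC. It was lowest with let-7e-5p, 1.14-fold below the median of the other 5. ARID3B, near background, was at 5.54 with let-7e-5p, 5.28 with miR-151a-3p, 5.43 with miR-130a-3p, 5.39 with miR-146a-5p, 5.20 with let-7d-3p and 5.82 with mimic NC, with let-7e-5p inside the range of the others.

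All 9 transcription and chromatin genes above background were lower with let-7e-5p than the median of the other arrays (50.7% of all genes). Past the threshold were 5 of them (7.91% of all genes), and the median difference was -0.34. E2F5, a repressive partner of the RB family in the cell cycle, was at 7.09 with let-7e-5p, 7.66 with miR-151a-3p, 7.62 with miR-130a-3p, 7.68 with miR-146a-5p, 7.77 with let-7d-3p and 7.40 with mimic NC. The let-7e-5p array was 0.31 under the nearest other array, mimic NC, and 1.48-fold below the median of the other 5. E2F6, a related repressor, was at 7.94 with let-7e-5p, 7.68 with miR-151a-3p, 7.59 with miR-130a-3p, 8.01 with miR-146a-5p, 8.06 with let-7d-3p and 8.09 with mimic NC. Here let-7e-5p lay in the middle and miR-130a-3p was lowest.

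PLAGL2, a zinc finger transcription factor, was at 8.29 with let-7e-5p, 8.77 with miR-151a-3p, 8.66 with miR-130a-3p, 8.71 with miR-146a-5p, 8.82 with let-7d-3p and 8.60 with mimic NC. The other 5 arrays spanned 0.22 and the let-7e-5p array stood 0.31 below them, 1.34-fold under their median. NR6A1, an orphan nuclear receptor of germ and stem cells, was at 5.73 with let-7e-5p, 5.74 with miR-151a-3p, 5.84 with miR-130a-3p, 6.45 with miR-146a-5p, 6.14 with let-7d-3p and 6.31 with mimic NC. It lay 1.33-fold under the median of the other 5, but miR-151a-3p and miR-130a-3p were almost as low.

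SMARCAD1, a chromatin remodeller, was at 9.18 with let-7e-5p, 9.80 with miR-151a-3p, 9.63 with miR-130a-3p, 9.16 with miR-146a-5p, 9.60 with let-7d-3p and 9.06 with mimic NC. Its difference of -0.42 (1.34-fold lower) came with still lower signals for mimic NC and miR-146a-5p, and against mimic NC alone the sign turns (0.12). HIC2, a zinc finger repressor, was at 5.19 with let-7e-5p, 5.89 with miR-151a-3p, 5.53 with miR-130a-3p, 5.17 with miR-146a-5p, 5.64 with let-7d-3p and 5.21 with mimic NC. The let-7e-5p, miR-146a-5p and mimic NC signals were all under background and close together. Counted from background it was at least 1.10-fold lower than the median of the other 5.

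PBX3, a homeodomain partner of HOX proteins, was at 10.75 with let-7e-5p, 11.04 with miR-151a-3p, 11.22 with miR-130a-3p, 11.33 with miR-146a-5p, 10.83 with let-7d-3p and 10.80 with mimic NC. It was lowest with let-7e-5p, 1.22-fold below the median of the other 5, just outside the threshold, while COIL at 1.26-fold was just inside. MYC, the growth-promoting transcription factor, was at 10.96 with let-7e-5p, 11.08 with miR-151a-3p, 11.20 with miR-130a-3p, 10.93 with miR-146a-5p, 11.36 with let-7d-3p and 11.16 with mimic NC. The lowest array for MYC was miR-146a-5p, and the let-7e-5p difference was -0.20. BACH1, a repressor that senses haem, was at 12.50 with let-7e-5p, under 4 of the other arrays (12.62 to 12.66) but above let-7d-3p (12.35).

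Among the signalling genes 5 of 7 above background were lower (50.7% of all genes), with a median difference of -0.20. Past the threshold were 2 of them (7.91% of all genes). MAP3K1, a kinase at the top of the JNK cascade, was at 9.56 with let-7e-5p, 10.32 with miR-151a-3p, 10.21 with miR-130a-3p, 10.22 with miR-146a-5p, 10.08 with let-7d-3p and 10.08 with mimic NC. The other 5 arrays lay within 0.24 and let-7e-5p was 0.52 under the lowest of them, 1.57-fold below their median. TGFBR1, the type I receptor for TGF-beta, was at 12.50 with let-7e-5p, 13.02 with miR-151a-3p, 12.99 with miR-130a-3p, 13.13 with miR-146a-5p, 13.31 with let-7d-3p and 12.91 with mimic NC. It stood 0.41 under the next array, mimic NC, and 1.43-fold below the median of the other 5. ACVR1B, the related activin receptor, was at 8.36 with let-7e-5p, 8.39 with miR-151a-3p, 8.73 with miR-130a-3p, 8.69 with miR-146a-5p, 8.45 with let-7d-3p and 8.56 with mimic NC. It too was lowest with let-7e-5p, with miR-151a-3p close by.

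Of the receptors for insulin and its relatives, IGF1R was under background on all arrays, with 3.71 on let-7e-5p and 4.11 to 4.79 on the others, and no fold is given for it. INSR was at 8.34 with let-7e-5p, 8.56 with miR-151a-3p, 8.41 with miR-130a-3p, 8.57 with miR-146a-5p, 8.05 with let-7d-3p and 8.25 with mimic NC. The let-7e-5p signal lay inside the range of the others, and let-7d-3p was lowest. IL6, the inflammatory cytokine, was under background on all arrays (3.34 to 4.22). STARD13, a START domain protein, was at 10.33 with let-7e-5p, between mimic NC (10.27) and the other 4 mimics (10.41 to 10.94). MAP4K4, a stress kinase, at 14.46 with let-7e-5p was inside a range of 14.24 to 14.65, and LRIG2, a membrane protein, at 8.31 inside one of 7.95 to 8.56.

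Of the 8 genes of general cell machinery, 7 were lower with let-7e-5p (50.7% of all genes). Past the threshold were 5 of them (7.91% of all genes), and the median difference was -0.375. LIMD2, a LIM domain protein, was at 7.94 with let-7e-5p, 8.57 with miR-151a-3p, 8.45 with miR-130a-3p, 8.36 with miR-146a-5p, 8.39 with let-7d-3p and 8.32 with mimic NC. It was 0.38 under the nearest array, more than the 0.25 that the other 5 spanned, and 1.37-fold below their median. GNPTAB, which starts the mannose 6-phosphate tag of lysosomal enzymes, was at 8.33 with let-7e-5p, 8.68 with miR-151a-3p, 8.75 with miR-130a-3p, 8.76 with miR-146a-5p, 8.80 with let-7d-3p and 8.45 with mimic NC. It was lowest with let-7e-5p and 1.34-fold below the median of the other 5, but 1.09-fold below mimic NC.

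COIL, the scaffold of Cajal bodies in the nucleus, was at 9.28 with let-7e-5p, 9.33 with miR-151a-3p, 9.82 with miR-130a-3p, 9.42 with miR-146a-5p, 9.78 with let-7d-3p and 9.61 with mimic NC. The let-7e-5p and miR-151a-3p arrays were 0.05 apart at the low end. CDC34, a ubiquitin-conjugating enzyme of the cell cycle, was at 4.78 with let-7e-5p, 5.69 with miR-151a-3p, 5.95 with miR-130a-3p, 5.97 with miR-146a-5p, 5.22 with let-7d-3p and 5.62 with mimic NC. The let-7e-5p and let-7d-3p signals were under background, so its fold against the median of the other 5 is at least 1.23. FIGN, a microtubule-severing enzyme, was at 4.99 with let-7e-5p, 5.34 with miR-151a-3p, 5.75 with miR-130a-3p, 5.49 with miR-146a-5p, 5.26 with let-7d-3p and 5.61 with mimic NC. It was lowest with let-7e-5p, under background, and at least 1.07-fold below the median of the other 5.

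For the other 3 genes of this group let-7e-5p was not the lowest array. FNDC3A, a fibronectin repeat protein, was at 12.38 with let-7e-5p and lowest with let-7d-3p (11.97). SLC20A1, a phosphate transporter, was at 14.17 with let-7e-5p and lowest with miR-146a-5p (13.84). RDX, which links actin to the membrane, was at 10.82 with let-7e-5p, inside a range of 10.63 to 10.98.

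**Figure D3:**
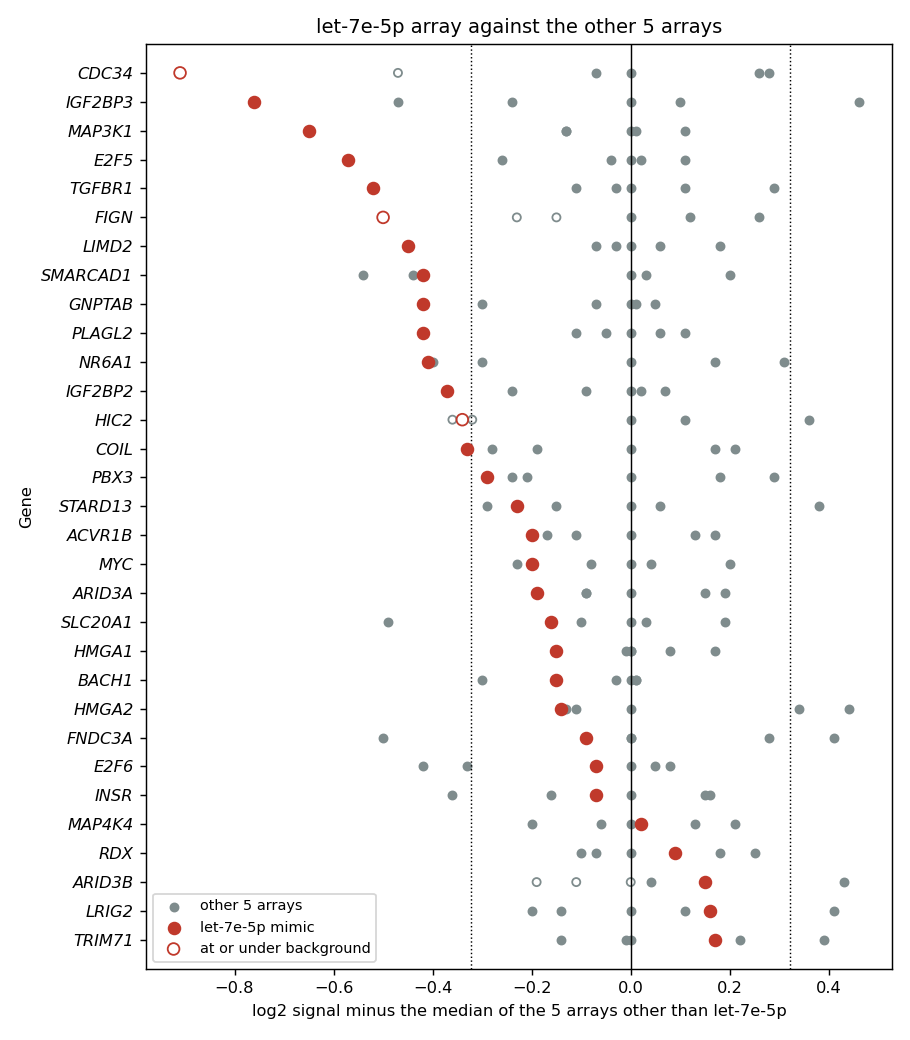
Each row is 1 of the 31 listed targets; the horizontal axis is the log2 signal minus the median of the 5 arrays other than let-7e-5p, with let-7e-5p in red, the other 5 arrays in grey, open circles at or under background and dotted lines at the threshold. MAP3K1, TGFBR1, LIMD2 and PLAGL2 show the red point apart from the grey ones by more than the grey points span, and for SMARCAD1 and HIC2 grey points lie beside or beyond it.

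For 4 of the 31 genes, MAP3K1, TGFBR1, LIMD2 and PLAGL2, the let-7e-5p signal was below the other 5 arrays by more than the whole range of those 5. This held for 1.96% of all genes above background. The count was chosen after the values were seen. Of the 14 genes past the threshold, 11 had a let-7e-5p signal above background, the others being CDC34, FIGN and HIC2. Of the 16 dimmer genes (mean signal up to 8.77) 9 were past the threshold, as were 11.6% of all genes up to that level. Of the 15 brighter genes 5 were, and 5.3% of all genes above it.

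With let-7d-3p, the arm with another seed, the 31 genes had a median difference of 0.03, with 15 lower (54.9% of all genes) and 16 higher (43.3%). The 4 genes past the threshold below were FNDC3A (-0.50), CDC34 (-0.47), IGF2BP3 (-0.47) and INSR (-0.36), and the 3 past it in the other direction were HIC2 (0.43), SMARCAD1 (0.42) and COIL (0.36). The CDC34 signal and the median that HIC2 was set against were under background. Raised to it, the differences were -0.30 for CDC34 and 0.25 for HIC2, and neither was past the threshold. The 4 genes that stood apart on let-7e-5p had differences here of 0.32 (TGFBR1), 0.16 (PLAGL2), 0.03 (LIMD2) and -0.13 (MAP3K1). Of the 31 genes 6 had their highest signal of the 6 arrays with let-7d-3p (15.0% of all genes), namely TGFBR1, PLAGL2, E2F5, ARID3A, MYC and GNPTAB.

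miR-130a-3p gave the highest median of the 6 arrays, 0.21, with 22 of 31 genes above the median of the other 5 (49.8% of all genes). The 9 genes past the threshold above were HMGA2 (0.55), SMARCAD1 (0.45), FIGN (0.41), FNDC3A (0.41), COIL (0.40), PBX3 (0.39), TRIM71 (0.39), IGF2BP3 (0.34) and CDC34 (0.33). E2F6 (-0.42) was the 1 gene past it below.

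The medians were 0.06 with miR-146a-5p, 0.03 with miR-151a-3p and -0.07 with mimic NC, against -0.03 to 0.03 over all genes on the 6 arrays. Past the threshold with miR-146a-5p were NR6A1 (0.61), STARD13 (0.53), PBX3 (0.50), HMGA2 (0.45) and CDC34 (0.35) above, and SLC20A1 (-0.49), SMARCAD1 (-0.44) and HIC2 (-0.36) below. The HIC2 signal was under background there, and raised to it the difference was -0.14, not past the threshold. With miR-151a-3p they were IGF2BP3 (0.70), HIC2 (0.68) and SMARCAD1 (0.62) above, and NR6A1 (-0.40) and E2F6 (-0.33) below. With mimic NC they were NR6A1 (0.47), ARID3B (0.43) and LRIG2 (0.41) above and SMARCAD1 (-0.54) below. SMARCAD1 was past the threshold on all 6 arrays, in both directions, so its low let-7e-5p signal was 1 of 3 low ones.

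**Figure D4:**
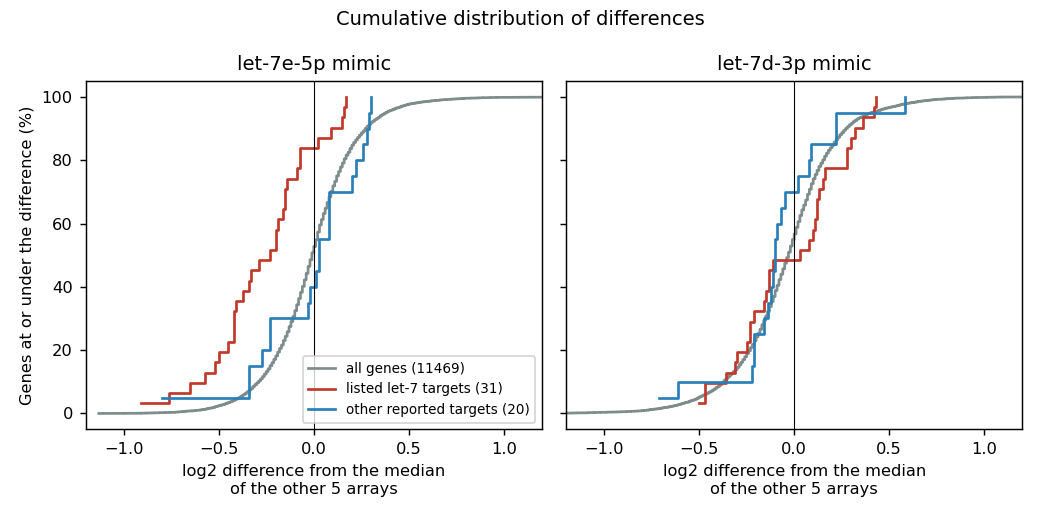
Cumulative share of genes in percent (vertical axis) by log2 difference from the median of the other 5 arrays (horizontal axis), for let-7e-5p on the left and let-7d-3p on the right; grey is all 11469 genes above background, red the 31 listed targets and blue 20 other reported targets. With let-7e-5p the red line lies to the left of the grey one (medians -0.23 and -0.01) and the blue median is 0.03; with let-7d-3p the red median is 0.03.

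A further list of 30 genes that have also been named as let-7 targets, gave other counts, and the difference between the lists was not tested. Of 26 with a named probe set 20 were above background. Of these 8 were lower with let-7e-5p (50.7% of all genes) and 12 higher, with a median of 0.03. Past the threshold were 3 below (7.91% of all genes) and 0 above (7.19%). The lowest was DICER1, which cuts miRNA precursors, at 8.90 with let-7e-5p, 10.08 with miR-151a-3p, 8.43 with miR-130a-3p, 9.51 with miR-146a-5p, 9.73 with let-7d-3p and 9.70 with mimic NC. It lay 1.74-fold under the median of the other 5 with let-7e-5p, but lower still with miR-130a-3p. GATM, an enzyme of creatine synthesis, and the nuclease and helicase DNA2 were each 1.27-fold lower and lowest of the 6 arrays with let-7e-5p (11.70 and 6.04). The highest differences were those of THBS1, a matrix glycoprotein (0.30), CCND2, a G1 cyclin (0.29), and ADAMTS8, a secreted protease (0.28). HRAS, a RAS GTPase named here after its values were seen, was lowest with let-7e-5p at 8.97, against 9.14 to 9.35 on the other arrays. In all 4 of the 20 genes were lowest with let-7e-5p (16.5% of all genes), GATM, DNA2, HRAS and AGO1 (9.84).

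Of 10 listed factors that make or trim let-7, 7 were above background, with a median of 0.01 with let-7e-5p. Of these 3 were lower (50.7% of all genes) and 4 higher. Those named were chosen after their values were seen. XPO5, which exports miRNA precursors, was lowest with let-7e-5p (9.73, the others at 9.88 to 10.18). The uridylyl transferases that LIN28 recruits to let-7 precursors were on opposite sides, TUT4 with a difference of -0.35 and TUT7 of 0.35.

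Other genes also differed on the let-7e-5p array. All 17 of a list of interferon-stimulated genes were above the median of the other 5 there (median 0.74), as were 5418 of all 11469 genes. All 17 were also above it with miR-146a-5p (median 0.95), as were 5788 of all 11469 genes. On that array the 31 let-7 targets had a median of 0.06 and 3 were past the threshold below (6.53% of all genes). Below the median of the other 5 were all 17 with let-7d-3p (-0.70) and with miR-151a-3p (-0.42), and 16 with miR-130a-3p (-0.37). Of all 11469 genes, 6299 were below it with let-7d-3p, 4972 with miR-151a-3p and 5534 with miR-130a-3p. The part of this in the signals of the let-7 targets was not tested. The 8 housekeeping genes had medians between -0.03 and 0.07 on the 6 arrays (-0.01 with let-7e-5p). The 10 macrophage markers had a median of -0.05 with let-7e-5p, with CD14 at -0.58 and CD163 at 0.45, the markers past the threshold. In such bulk RNA, less of an mRNA per cell and fewer cells that hold it cannot be told apart.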

How the data were processed

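RNA of 6 THP-1 cultures was hybridised to Affymetrix Human Clariom S arrays, 1 per group. The authors deposited log2 signals for each probe set. Per the submitters' processing notes these come from RMA in Transcriptome Analysis Console 4.0. The sources used here do not give the RMA settings or which arrays were normalized as 1 set. The labels name Trizol for RNA extraction and the paper the RNeasy kit. RMA can shrink differences of dim probe sets and was not repeated from scanner data.

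Of 21448 probe sets 17709 had 1 gene symbol and 3739 none, and probe sets of a gene were averaged. Differences were taken on the log2 scale between an array and the median of the other 5, and those of more than 0.32 in either direction were counted. With 1 array per group no test, error or interval was possible. A signal under background (5.39) was raised to it where a fold is given as "at least".

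The members, the gene lists and the threshold were chosen with earlier results of these data known. All listed genes were accounted for; those named with 6 signals are the genes past the threshold or lowest on let-7e-5p and the HMGA, LIN28, IGF2BP, ARID3, E2F and PLAGL families, INSR and MYC. Listed genes under background are given by their range. T cell and B cell markers served only to check the label.

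The alternatives were other comparators, a further quantile normalization, centring of arrays on their medians, a lowess correction (span 0.3), no filter or a background 1 log2 unit higher, a pseudocount of 32, the mean over genes, the brightest probe set and a lower threshold and one of 1.5-fold. Raising signals to background was added after the data were seen. The procedure was tested on simulated data. Python 3.11.15, pandas 2.3.3 and statsmodels 0.14.6 were used.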

Additional observations from a re-analysis of the deposited data

How the results depend on the processing

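With 1 array per group, array noise and effect cannot be told apart for any single gene, and the values below show only how far the choices move the numbers. The median difference of the 31 genes on let-7e-5p stayed below 0 under all alternatives run, from -0.272 (mean over the genes) to -0.185 (without the miR-130a-3p array among the comparators). The count of genes past the threshold below was 14 (7.91% of all genes). It fell to 9 with mimic NC alone as comparator (10.2%) and to 3 at a threshold of 1.5-fold (1.21%). Under the other alternatives it was 10 to 16, with 11 when signals were raised to background and 10 of 25 genes with the higher background. Without the filter on background it was 15 of 36 genes (9.36%). For the rest of these alternatives the share of all genes was not computed, so their counts have nothing to be set against. The count past the threshold in the higher direction was 0 throughout (7.19% of all genes in the main setting). The count of genes lowest on let-7e-5p was 17 (16.5% of all genes), and 15 to 17 under the alternatives that kept all 31 genes and all arrays. It was 14 of 25 genes with the higher background and 20 of 36 genes without the filter (15.3%). With 1 comparator array left out it was 17 to 20, but being lowest of fewer arrays is easier to reach. Apart from the setting without the filter, the share of all genes was not computed for these alternatives. Against mimic NC alone 25 of 31 were lower (49.6%). The let-7d-3p median lay between -0.02 and 0.09. Of the 14 genes, IGF2BP2, IGF2BP3, TGFBR1, MAP3K1 and LIMD2 stayed past the threshold under all alternatives to the comparator, normalization, filter and scale. IGF2BP2 did so only just, with a difference of -0.322 from the mean of the other 5 arrays. SMARCAD1 turned to 0.12 against mimic NC alone. The cause of the last was not tested. A median counted as moved where its change reached the SD of the same median over the other 5 arrays, 0.101 for let-7e-5p, since no replicate spread exists. A count moved where it changed by more than 1.5-fold. A single gene moved where its change reached the SD of its own signal over the other 5 arrays. Of 459 single-gene values under the alternatives 444 stayed the same, 14 moved and 1 was reversed (SMARCAD1). A change of sign was counted as reversed only for the 14 genes past the threshold. Other genes changed sign too: against mimic NC alone ARID3B went to -0.28, LRIG2 to -0.25, STARD13 to 0.06 and INSR to 0.09. As each gene had 1 probe set, the brightest probe set and the filters could not change its difference. Those values were the same by construction. No paired analysis was possible because there was 1 array in each group, and for the same reason no replicate could be left out.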
